A study of Mus musculus with 18 samples.

Results

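The nuclear-encoded subunits of respiratory complexes II, III, IV and V and the electron carrier cytochrome c were followed in mouse kidney cortex. A row of the expression table was taken as a member when its gene name was Sdha, Sdhb, Sdhc, Sdhd, Cyc1 or Cycs, or began with Uqcr, with Cox and a digit from 4 to 8, or with Atp5. The rule found 49 of the 24062 genes: 4 of complex II, 9 of complex III, 18 of complex IV and 15 of complex V, cytochrome c itself (Cycs), and 2 genes that are named after complex V but are not among its subunits (Atp5s and Atp5sl). No row of the table was a mitochondrially encoded gene, so Cox1, Cox2, Cox3, cytochrome b and the ATP synthase subunits of the mitochondrial genome were not analysed here.

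The mice were of the strain C57Bl/6 and all carried the floxed Klf15 allele. Klf15fl/fl animals (called fl/fl) were the controls, and Klf15PTKO animals (called PTKO) lacked the transcription factor KLF15 in proximal tubule cells, which the name of the line states; the promoter that drives the recombinase, the age and the sex were not given in the sources used here. Each genotype was given DMSO, the vehicle, or AAI, taken here as aristolochic acid I, a plant toxin of proximal tubule cells. The AA 2wk groups were taken after 2 weeks of AAI, and the AA 4wk groups had a further 2 weeks of remodeling after those 2 weeks. There were 3 libraries in each of the 6 groups, 18 in all. The labels do not say that they come from separate mice, so p-values measure the spread between these libraries, which may be technical. No group carried a recombinase without the floxed allele, so loss of Klf15 and presence of the recombinase cannot be told apart, and both AA courses share 1 set of DMSO libraries with no stated week.

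Complexes II to V are the later stations of oxidative phosphorylation in the inner mitochondrial membrane. Complex II oxidises succinate and is also an enzyme of the citric acid cycle; complex III passes electrons from ubiquinol to cytochrome c; complex IV passes them from cytochrome c to oxygen; and complex V, the ATP synthase, uses the proton gradient to make ATP. Proximal tubule cells reabsorb most of the filtrate, are dense in mitochondria and rely on oxidative metabolism. All 4 complex II subunits are encoded in the nucleus, whereas complexes III, IV and V also hold mitochondrially encoded subunits.

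Recovered depth was between 10681972 and 21155873 reads a library. Klf15 read 53.0 to 65.5 RPKM (reads divided by gene length and by library depth) in fl/fl and 28.5 to 32.6 in PTKO with DMSO, and 11.6 to 18.8 against 8.81 to 9.53 at AA 4wk. At AA 2wk it read 18.6 to 41.3 in fl/fl and 12.5 to 25.6 in PTKO, and these ranges overlapped. All 10 proximal tubule markers were above 0 in every library, with a summed level of 6590 to 7570 RPKM in fl/fl and 6630 to 7190 in PTKO with DMSO. In fl/fl the sum was 1880 to 3500 after 2 weeks of AAI and 2050 to 2360 in the AA 4wk group, and in PTKO it was 1740 to 4180 and 970 to 1780. The summed level of 7 macrophage markers, none of them at 0, was 68.1 to 109, 440 to 2870 and 2110 to 3200 RPKM in fl/fl with DMSO, AA 2wk and AA 4wk, and 82.5 to 127, 899 to 2550 and 3430 to 4770 in PTKO. In both genotypes the sums of both lists did not overlap between DMSO and either AA group, so they move with the 4 comparisons of AA with DMSO, and their part in those results was not tested. Both sums overlapped between the genotypes with DMSO and at AA 2wk, and between the AA times in fl/fl; in PTKO the proximal tubule sums of the AA times overlapped and the macrophage sums did not. In whole cortex, fewer cells of a type and less RNA per cell cannot be told apart. In both genotypes the AA 2wk library numbered 3 stood apart from the other 2 and nearer to the DMSO libraries, so the AA 2wk counts of calls and medians of complexes are given with and without both of these libraries, and single members by library.

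After AAI the complexes moved by different amounts, in the order II, III, V, IV from the lowest to the highest (the plot of complex medians by library). For each library, the deviation of log2(RPKM + 1) from the fl/fl DMSO mean was taken for every tested subunit, and the median over the subunits of a complex was compared with that of the others in the same library. Complex II lay below complex III in 12 of 12 AA libraries, complex III below complex V in 12 of 12, and complex V below complex IV in 12 of 12. The narrowest margin of complex III below complex V was -0.009, in fl/fl AA 2wk library 3. None of the 6 DMSO libraries had this order. The fl/fl DMSO libraries set the reference and so scatter about 0 in every complex, which makes them a weak contrast. In settings tried after seeing the order, complex III lay below complex V in 8 of 12 libraries under quantile normalization and in 11 of 12 with a minimum of 5 RPKM; complex II below III and complex V below IV stayed at 12 of 12 under both.

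**Figure D1:**
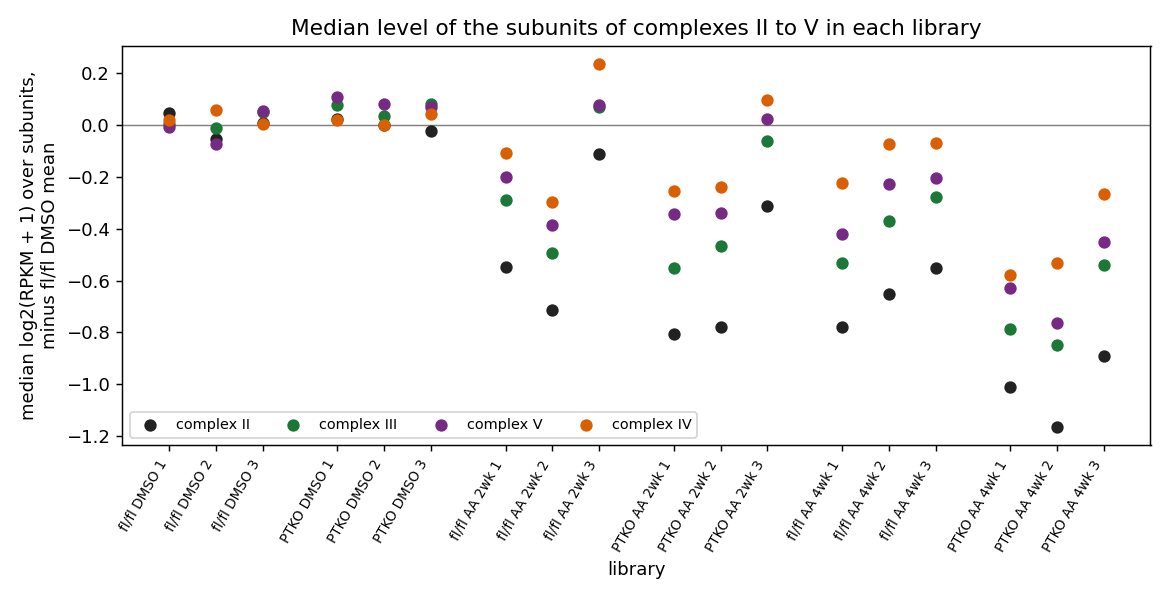
Median over the tested subunits of each complex of log2(RPKM + 1) minus the fl/fl DMSO mean (y axis), for each of the 18 libraries (x axis); each point is 1 complex in 1 library, with 4 complex II, 9 complex III, 14 complex V and 15 complex IV subunits. Complex II is the lowest point and complex IV the highest in each of the 12 AA libraries; the sign of the complex IV and V points depends on the scaling (under quantile normalization the complex IV median was above 0 in 3 of the 4 AA comparisons with DMSO and that of complex V in 1).

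The widest gap lay between complexes II and IV. Complex II minus complex IV, as a log2 difference within a library, was 0.029, -0.111 and 0.006 in the fl/fl DMSO libraries and 0.004, 0.001 and -0.063 in the PTKO DMSO libraries. In fl/fl it was -0.44, -0.416 and -0.346 in the AA 2wk libraries and -0.558, -0.579 and -0.485 in the AA 4wk libraries. In PTKO it was -0.551, -0.539 and -0.409, then -0.433, -0.631 and -0.626. All 12 AA values lay below all 6 DMSO values. The genotypes overlapped within each AA time; the fl/fl AA 4wk values lay below the fl/fl AA 2wk values without overlap, and in PTKO the times overlapped. The group means were -0.40 ± 0.05 and -0.54 ± 0.05 in fl/fl at the 2 times and -0.50 ± 0.08 and -0.56 ± 0.11 in PTKO (SD, n = 3). The library that stood apart in each AA 2wk group held the smallest gap of its group. The gap between complexes III and V was smaller, at -0.07 ± 0.05 in fl/fl AA 2wk and -0.11 ± 0.03 in fl/fl AA 4wk (SD, n = 3), against 0.023 ± 0.035 in fl/fl DMSO. Apart from the pseudocount, these differences within a library do not change when all its values are multiplied by a constant. They were not tested, because the members of a complex are not replicates.

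Summed RPKM over all subunits of a complex, tested or not, were also compared. The 4 complex II subunits summed to 1320 ± 49.3, 979 ± 219 and 852 ± 61.5 RPKM in fl/fl with DMSO, AA 2wk and AA 4wk, and to 1300 ± 11.6, 879 ± 164 and 670 ± 55.7 in the PTKO groups (SD, n = 3). The 18 complex IV subunits summed to 5240 ± 78.8, 5080 ± 1010 and 4720 ± 366 RPKM in fl/fl and to 5450 ± 82.1, 4920 ± 877 and 3790 ± 403 in PTKO. The 3 AA 2wk libraries of fl/fl spanned 4217 to 6190 RPKM for complex IV, a range that holds all 3 fl/fl DMSO sums. Without the AA 2wk libraries numbered 3, the AA 2wk means over the remaining 2 libraries were 856 RPKM in fl/fl and 785 in PTKO for complex II, and 4530 and 4410 for complex IV. The 15 complex V subunits summed to 6250 ± 354 RPKM in fl/fl DMSO and 4690 ± 321 at AA 4wk, and the 9 complex III subunits to 2740 ± 48.6 and 2110 ± 175. In both cases every fl/fl AA 4wk library lay below every fl/fl DMSO library, and the same held for complexes II and IV. The complex IV sums were 4331, 4767 and 5057 RPKM at AA 4wk against 5252, 5310 and 5154 with DMSO. As a percentage of all RPKM of a library, complex IV was 1.106 ± 0.08 at AA 4wk and 1.131 ± 0.037 with DMSO (SD, n = 3), with overlap.

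Among the members tested singly, the fall after AAI was counted in 4 comparisons with DMSO (the plot of changes by complex). A member was called when limma gave an adjusted p below 0.05 (Benjamini-Hochberg over all 13624 genes tested, two-sided); 45 of the 49 members passed the filter of 1 RPKM in 3 libraries, and Cox7b2, Cox8b, Cox8c and Atp5g2 did not. At AA 2wk in fl/fl 11 of 45 members fell and 2 rose, against 12.2% of all genes called lower and 50.4% called higher. At AA 2wk in PTKO 16 fell and 2 rose, against 14.3% and 45.9%. At AA 4wk in fl/fl 22 fell and 2 rose, against 14.3% and 51.9%, and at AA 4wk in PTKO 39 fell and 3 rose, against 17.3% and 55%. The median of all genes was 0.33, 0.29, 0.35 and 0.40 in these 4 comparisons on the log2 scale, and 42, 44, 42 and 42 of the 45 members lay below it. Median-of-ratios scaling brought the median of all genes to between -0.015 and 0.003, and 30, 35, 38 and 40 members then fell and 1, 1, 1 and 2 rose. Of all genes 27.7%, 27.3%, 30.8% and 33.9% fell and 27.9%, 26.7%, 30% and 32.9% rose under this scaling. Quantile normalization gave 9, 11, 10 and 28 lower and 4, 1, 2 and 2 higher. Of all genes 29.7%, 27.7%, 33.8% and 36.5% were then called lower and 24.1%, 24.3%, 26.3% and 29.2% higher. In the first 3 comparisons the share of members called lower was thus below that of all genes.

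The shares by complex differed as the medians did. In fl/fl at AA 2wk 3 of 4 complex II, 3 of 9 complex III, 2 of 14 complex V and 0 of 15 complex IV subunits fell; the AA 4wk counts were 4, 6, 7 and 2. In PTKO 4 of 4, 6 of 9, 4 of 14 and 0 of 15 fell at AA 2wk, and the later counts were 4, 9, 13 and 10. The complex II median was -0.48 and -0.67 in fl/fl at AA 2wk and AA 4wk, and -0.58 and -0.96 in PTKO. The complex III median was -0.27, -0.40, -0.37 and -0.75 in the same order, and that of complex V -0.18, -0.28, -0.28 and -0.68. The complex IV median was -0.06, -0.11, -0.17 and -0.52 in that order, and the first 3 of these were above 0 under quantile normalization. Quantile normalization also moved the fl/fl medians of complex III to -0.06 and -0.05, of complex V to 0.01 and -0.09 and of complex II to -0.25 and -0.35 (AA 2wk, AA 4wk). Median-of-ratios scaling moved the fl/fl AA 4wk medians to -1.10 for complex II, -0.83 for complex III, -0.71 for complex V and -0.52 for complex IV. For scale, the 36 tested complex I subunits had medians of -0.14, -0.32, -0.29 and -0.67, between those of complexes IV and III. The AA 2wk counts moved when single libraries were left out. Without fl/fl AA 2wk library 2 the count of members called in fl/fl was 4, and without library 3 it was 21. In PTKO it was 12 without AA 2wk library 1 and 28 without AA 2wk library 3. The share of all genes called in these settings is not given, so these counts are not set against all genes. Without both libraries numbered 3, 24 members fell and 1 rose in fl/fl, and 32 fell and 1 rose in PTKO. Of all genes 14.6% fell and 53.7% rose in fl/fl in that setting, and 16% fell and 54.1% rose in PTKO. By complex, 4 of 4 complex II, 7 of 9 complex III, 7 of 14 complex V and 3 of 15 complex IV subunits then fell in fl/fl, with medians of -0.66, -0.46, -0.30 and -0.21. In PTKO 4, 8, 11 and 7 fell, with medians of -0.72, -0.49, -0.39 and -0.29.

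**Figure D2:**
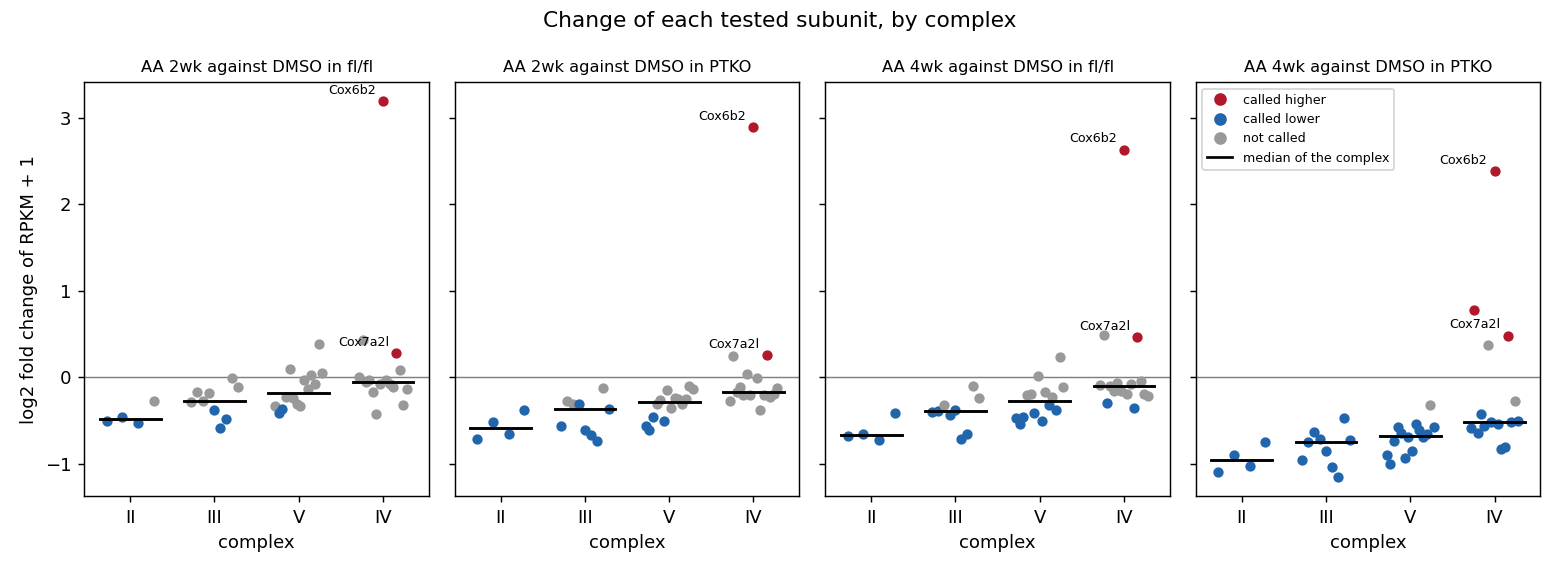
Log2 fold change of RPKM + 1 (y axis) of each tested subunit against DMSO, by complex (x axis), in the 4 AA comparisons; each point is 1 gene, coloured by its limma call, and the bar is the median of the complex. Cox6b2 stands far above the other subunits at 3.19, 2.90, 2.63 and 2.38, and the medians descend from complex IV to complex II; under quantile normalization the complex IV median lies above 0 in the first 3 panels and the complex V median in the first.

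Complex II, succinate dehydrogenase, was the complex with the lowest values after AAI. Sdha, the flavoprotein that holds the site of succinate oxidation, read 415, 369 and 398 RPKM in fl/fl DMSO, 272, 218 and 359 at AA 2wk, then 229, 253 and 252 at AA 4wk. In PTKO it read 400, 414 and 390, then 213, 218 and 316, then 195, 173 and 195 in the same order. No AA library reached any DMSO library of its genotype. The log2 change of Sdha in fl/fl was -0.50 ± 0.16 (SE; limma adjusted p = 0.0147) and then -0.69 (adjusted p = 0.0019), and in PTKO -0.71 (adjusted p = 0.00189) and then -1.10 (adjusted p = 3.2e-05). At AA 4wk its mean was 62.1% of the DMSO mean in fl/fl and 46.7% in PTKO. The fl/fl AA 2wk call of Sdha was lost under quantile normalization, without fl/fl AA 2wk library 2 and in a fit of only the groups compared, where the adjusted p rose to at most 0.106.

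The other 3 subunits of complex II followed (the plot of the 4 subunits). Sdhb carries the iron-sulfur clusters that pass electrons on from the flavin, and it read 402, 353 and 378 RPKM in fl/fl DMSO, 255, 227 and 354 at AA 2wk, and 219, 236 and 264 at AA 4wk. In PTKO Sdhb read 338, 346 and 341, then 209, 214 and 305, then 182, 170 and 199. Its fl/fl AA 2wk library 3, at 354 RPKM, lay within the DMSO range, and the other AA libraries lay below it. Sdhc and Sdhd anchor the enzyme in the membrane and form the ubiquinone site. Sdhc read 286, 279 and 281 RPKM in fl/fl DMSO, 178, 174 and 237 at AA 2wk, then 159, 163 and 187 at AA 4wk, and in PTKO 289, 282 and 276, then 165, 168 and 206, then 139, 122 and 154. Its libraries with and without AAI did not overlap, and its change of -0.73 (SE 0.13, limma adjusted p = 0.000146) in fl/fl at AA 4wk was the lowest of the complex there. Sdhd read 257, 262 and 273 RPKM in fl/fl DMSO, 199, 189 and 276 at AA 2wk, then 181, 204 and 209 at AA 4wk, and in PTKO 269, 265 and 276, then 190, 192 and 242, then 155, 150 and 177. Its fl/fl AA 2wk library 3 lay above the DMSO libraries. Sdhd had the smallest change of the 4, and at AA 2wk in fl/fl it was not called (log2 change -0.28, limma adjusted p = 0.0806). The AA 2wk call of Sdhb was lost in both genotypes under quantile normalization (limma adjusted p = 0.114 in fl/fl and 0.0687 in PTKO), in fl/fl also without DMSO library 1, without AA 2wk library 1 or 2 and in a fit of only the groups compared, and in PTKO without AA 2wk library 1 or 2. That of Sdhd in PTKO was lost under quantile normalization (limma adjusted p = 0.0845) and without DMSO library 3 or AA 2wk library 1 or 2. Its fl/fl AA 4wk call was lost under quantile normalization (limma adjusted p = 0.306) and without AA 4wk library 1.

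**Figure D3:**
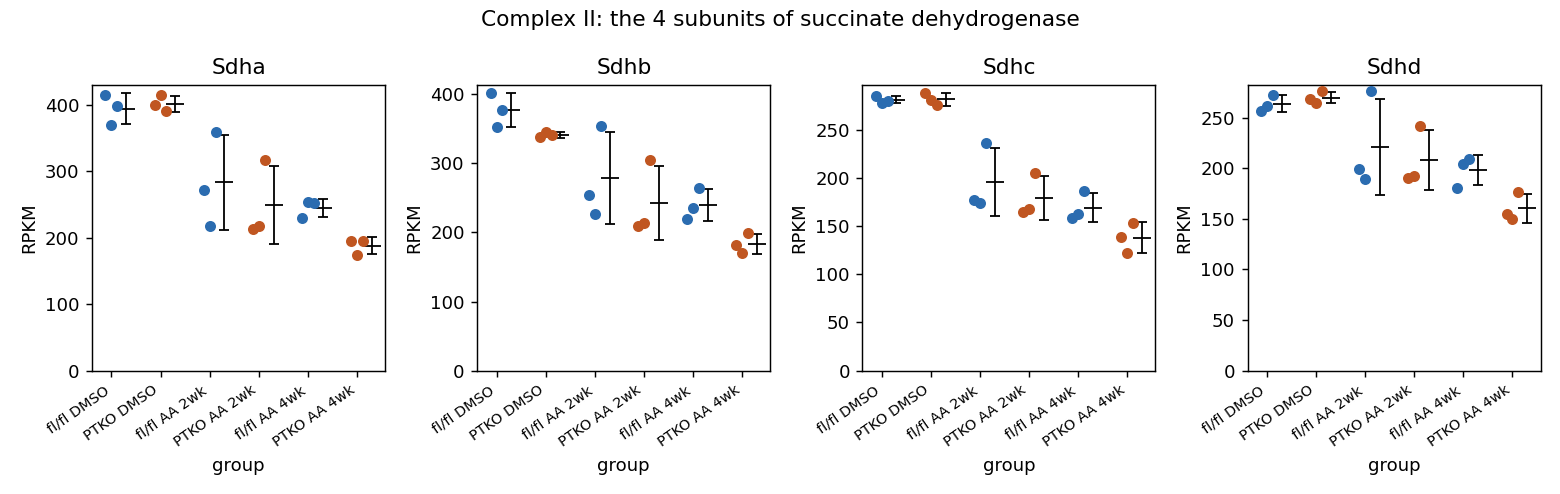
RPKM (y axis, from 0) of the 4 complex II subunits in the 6 groups (x axis); points are the 3 libraries of a group, and the black mark is their mean with SD. The PTKO AA 4wk libraries hold the lowest values of Sdha (173 to 195 RPKM), Sdhb (170 to 199), Sdhc (122 to 154) and Sdhd (150 to 177), and fl/fl AA 2wk library 3 sits near the DMSO points.

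In complex III the core and electron-carrying subunits changed more than the small ones; this grouping was drawn with the values known. The 4 larger subunits are the core proteins Uqcrc1 and Uqcrc2, the Rieske iron-sulfur protein Uqcrfs1 and cytochrome c1 (Cyc1), which hands electrons to cytochrome c. Their median change was -0.44 and -0.53 in fl/fl (AA 2wk, AA 4wk) and -0.64 and -1.003 in PTKO. The 5 small subunits (Uqcrb, Uqcrh, Uqcrq, Uqcr10 and Uqcr11) had medians of -0.17, -0.32, -0.31 and -0.72. Without both AA 2wk libraries numbered 3 the AA 2wk medians were -0.59 for the larger and -0.29 for the small subunits in fl/fl, and -0.80 and -0.39 in PTKO. In fl/fl at AA 4wk 4 of the 4 larger and 2 of the 5 small subunits fell. The fl/fl calls of Uqcrc1 were near the threshold, and each was lost in 13 of 28 settings.

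Uqcrc2 had the lowest change of complex III in fl/fl. It read 327, 324 and 327 RPKM in fl/fl DMSO, 208, 177 and 277 at AA 2wk, then 187, 196 and 214 at AA 4wk, and in PTKO 312, 323 and 313, then 175, 186 and 240, then 152, 144 and 163. No AA library reached a DMSO library. The log2 change was -0.59 and -0.71 in fl/fl (limma adjusted p = 0.00226 and 0.000452) and -0.67 and -1.04 in PTKO (limma adjusted p = 0.000993 and 1.32e-05). Uqcrfs1 had the lowest change in PTKO at AA 4wk, -1.16 (SE 0.15, limma adjusted p = 7.83e-06), with 123, 105 and 129 RPKM against 273, 265 and 261 with DMSO. In fl/fl it read 258, 233 and 260 with DMSO and 148, 162 and 167 at AA 4wk, also without overlap.

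The 2 proteins that meet cytochrome c differed from each other. Cyc1 read 347, 327 and 317 RPKM in fl/fl DMSO, 269, 210 and 344 at AA 2wk, then 228, 255 and 266 at AA 4wk, and in PTKO 365, 360 and 349, then 212, 213 and 316, then 182, 161 and 210. In fl/fl its AA 2wk libraries overlapped the DMSO libraries and were not called (limma adjusted p = 0.149), and its AA 4wk libraries fell (log2 change -0.41, limma adjusted p = 0.0489), a call lost in 15 of 28 settings. Uqcrh, the hinge protein between cytochrome c1 and cytochrome c, was at the other end: 374, 420 and 421 RPKM in fl/fl DMSO, 362, 358 and 498 at AA 2wk, then 347, 387 and 397 at AA 4wk. These fl/fl ranges overlapped, and Uqcrh fell in 1 of the 4 comparisons, in PTKO at AA 4wk (log2 change -0.47, limma adjusted p = 0.00426), where it read 293, 275 and 315 against 423, 374 and 430 RPKM. That call was lost under quantile normalization (limma adjusted p = 0.599).

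Cycs, which encodes the soluble electron carrier between complexes III and IV, was listed far below its partners. It read 4.53, 3.36 and 5.18 RPKM in fl/fl DMSO, 2.84, 2.85 and 3.78 at AA 2wk, then 2.13, 2.22 and 2.86 at AA 4wk. In PTKO it read 3.34, 4.71 and 4.07, then 2.49, 2.48 and 2.95, then 2.1, 1.74 and 1.7. The AA 4wk libraries lay below all DMSO libraries of their genotype, and Cycs fell in all 4 comparisons (log2 change -0.36, -0.46, -0.65 and -0.82 for fl/fl AA 2wk, PTKO AA 2wk, fl/fl AA 4wk and PTKO AA 4wk, with limma adjusted p = 0.048, 0.0153, 0.00154 and 0.000195). The fl/fl AA 2wk call was lost in 15 of 27 alternative settings, and the PTKO AA 2wk call without PTKO DMSO library 2 (adjusted p = 0.0738). In the GENCODE vM21 transcripts, 28.53% of the 50-base windows of the Cycs transcript examined also occurred in transcripts of 76 other genes. The same held for 84.85% of the windows of Atp5l (14 other genes) and 27.88% of those of Cox7c (3 other genes), which read 0.324 to 1.79 and 1.42 to 4.09 RPKM over the 18 libraries. Sharing was not limited to these low rows. Of the 48 members with a transcript, 25 shared at least 1 window with another gene. The share was 47.87% in Atp5h, 43.42% in Uqcrb, 38.71% in Atp5f1 and 32.05% in Cox5a, with median levels of 154, 75.4, 158 and 303 RPKM. How shared reads were assigned was not given in the sources used here, so the levels of all these genes are uncertain.

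Complex IV held the only members that rose in all 4 comparisons, Cox6b2 and Cox7a2l, and the latter did not keep its calls under median-of-ratios scaling. Its 5 subunits without a tissue isoform among the tested members (Cox5a, Cox5b, Cox6c, Cox7b and Cox7c) had median changes of -0.04 and -0.19 in fl/fl and -0.17 and -0.52 in PTKO at AA 2wk and AA 4wk. None of them was called at AA 2wk in the fit of all libraries. Without both AA 2wk libraries numbered 3 their AA 2wk medians were -0.197 in fl/fl and -0.285 in PTKO. In that setting 1 of the 5 fell in fl/fl and 2 fell in PTKO, against 14.6% and 16% of all genes. The 5 main isoforms (Cox4i1, Cox6a1, Cox6b1, Cox7a2 and Cox8a) had medians of -0.11, -0.16, -0.21 and -0.57 in fl/fl AA 2wk, fl/fl AA 4wk, PTKO AA 2wk and PTKO AA 4wk. All 5 fell in PTKO at AA 4wk, and 1 of them, Cox7a2, in fl/fl at AA 4wk. Without both AA 2wk libraries numbered 3 the AA 2wk medians of the main isoforms were -0.275 in fl/fl and -0.343 in PTKO. In that setting 2 of the 5 fell in fl/fl and 4 fell in PTKO.

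Cox6b2 is the testis isoform of a subunit on the intermembrane side of complex IV that helps to join its dimer; Cox6b1 is the isoform of other tissues. Cox6b2 lies at chr7:4751792-4753094 on the minus strand (GENCODE vM21, GRCm38), no exon of another annotated gene overlaps it, and none of its 50-base windows occurred in a transcript of another gene. It read 9.7, 11.3 and 3.79 RPKM in fl/fl DMSO, 62.8, 64.7 and 114 at AA 2wk, then 52.6, 49.5 and 54.3 at AA 4wk. In PTKO it read 7.69, 6.86 and 6.8 with DMSO, 53.4, 62.8 and 62.2 at AA 2wk, then 39.6, 35.3 and 50.3 at AA 4wk. Every AA library lay above every DMSO library, and the genotypes overlapped within each AA time. The log2 change in fl/fl was 3.19 ± 0.28 (SE; limma adjusted p = 1.11e-06) and then 2.63 (limma adjusted p = 3.06e-06), and in PTKO 2.90 (limma adjusted p = 2.3e-06) and then 2.38 (limma adjusted p = 4.88e-06). On the linear scale the AA 2wk mean was 9.75 times the DMSO mean in fl/fl and 8.36 times in PTKO, and at AA 4wk 6.32 and 5.87 times. These 4 calls held in all 28 alternative settings.

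Cox6b1 was called in 1 of the 4 comparisons, as lower in PTKO at AA 4wk (log2 change -0.52, limma adjusted p = 0.00403). It read 829, 848 and 878 RPKM in fl/fl DMSO, 790, 689 and 969 at AA 2wk, then 695, 793 and 803 at AA 4wk, and in PTKO 846, 920 and 900, then 702, 721 and 896, then 570, 567 and 732. As a share of the 2 isoforms together, Cox6b2 was 1.16%, 1.31% and 0.43% in fl/fl DMSO, 7.36%, 8.59% and 10.5% at AA 2wk, then 7.03%, 5.87% and 6.33% at AA 4wk. In PTKO the share was 0.901%, 0.74% and 0.75%, then 7.06%, 8.02% and 6.49%, then 6.5%, 5.86% and 6.43%. All AA shares lay above all DMSO shares, and Cox6b1 remained the more abundant isoform in every library. An exact permutation test of 3 against 3 libraries cannot give a p below 0.1, so none is quoted for the shares.

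The protein of Cox7a2l (also known as Scaf1) is described as joining complex III to complex IV in supercomplexes. Whether it does so in the mouse strain used here was not tested, and RPKM values do not measure supercomplexes. Cox7a2l read 48.9, 65.1 and 56.6 RPKM in fl/fl DMSO, 65.6, 69.3 and 71.3 at AA 2wk, then 79.3, 77.7 and 77.8 at AA 4wk. In PTKO it read 57.1, 50.9 and 58.1, then 71.9, 61.6 and 65.9, then 70, 81.4 and 82.1. All AA libraries lay above the DMSO libraries of their genotype. It rose by 0.28 and 0.46 on the log2 scale in fl/fl (limma adjusted p = 0.0256 and 0.000925) and by 0.26 and 0.48 in PTKO (limma adjusted p = 0.0375 and 0.000556), but median-of-ratios scaling turned the AA 2wk values to -0.12 in fl/fl and -0.08 in PTKO and ended all 4 calls. Of 28 settings 19 kept the fl/fl AA 2wk call and 20 the PTKO one; it was lost in fl/fl without DMSO library 1 or 3 or AA 2wk library 2 or 3, and in PTKO without DMSO library 1 or 2 or AA 2wk library 1 or 3. The median of all genes, 0.29 to 0.40, was close to these changes. Relative to its paralog Cox7a2, which a common scaling leaves unchanged, Cox7a2l made up 13.5%, 18.3% and 15.3% of the pair in fl/fl DMSO, 19.8%, 22.6% and 16.5% at AA 2wk, then 26.5%, 24.8% and 23.1% at AA 4wk. In PTKO its share was 15.9%, 14.3% and 15.5%, then 22.9%, 20.3% and 17%, then 28.1%, 33.8% and 30.4%. The PTKO AA 4wk shares were the highest and overlapped none of the other groups.

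**Figure D4:**
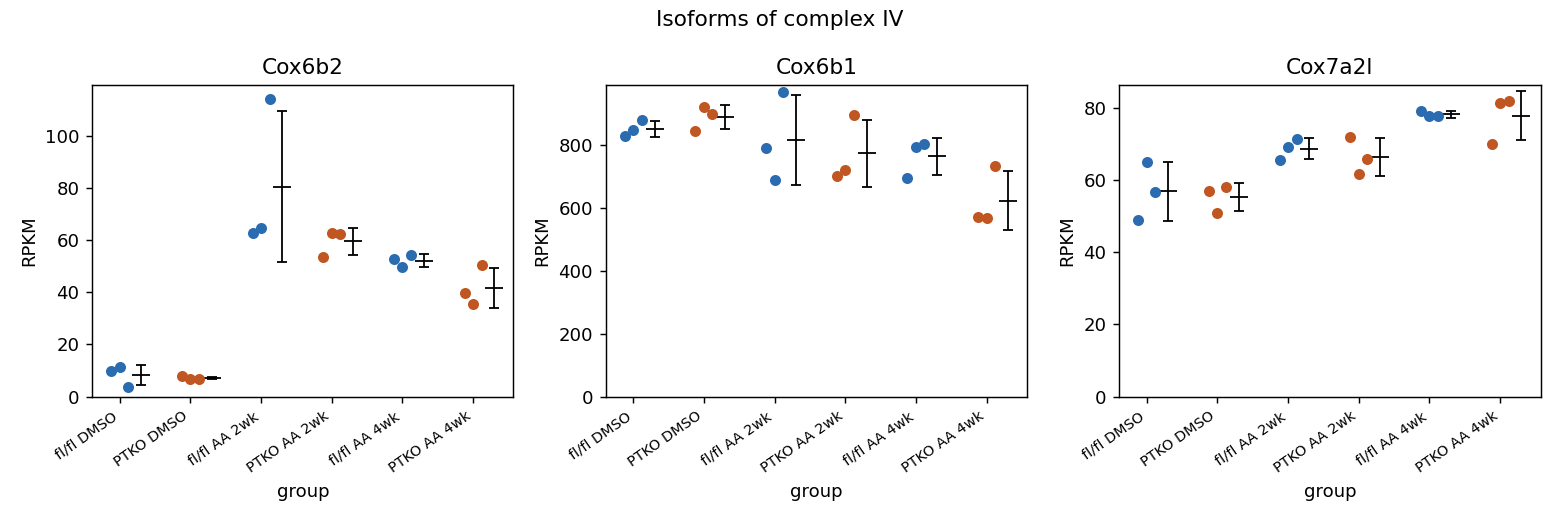
RPKM (y axis, from 0) of Cox6b2, Cox6b1 and Cox7a2l in the 6 groups (x axis); points are the 3 libraries of a group, and the black mark is their mean with SD. Cox6b2 sits at 3.79 to 11.3 RPKM in the DMSO libraries and at 35.3 to 114 in the AA libraries, while Cox6b1 stays between 567 and 969 RPKM; the rise of Cox7a2l at AA 2wk turns to -0.12 and -0.08 (log2) under median-of-ratios scaling.

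Cox7a1, Cox4i2 and Cox6a2 stayed minor beside their common forms Cox7a2, Cox4i1 and Cox6a1. Cox7a2, the main form of subunit VIIa, read 313, 291 and 313 RPKM in fl/fl DMSO, 267, 237 and 360 at AA 2wk, then 220, 236 and 259 at AA 4wk, and in PTKO 301, 306 and 316, then 242, 242 and 321, then 179, 159 and 188. Only its AA 4wk libraries lay wholly below DMSO, with log2 changes of -0.36 in fl/fl (limma adjusted p = 0.0359) and -0.81 in PTKO (limma adjusted p = 0.000137); the fl/fl call was lost under quantile normalization (limma adjusted p = 0.781) and without DMSO library 1 or 3 or AA 4wk library 1 or 2. Cox7a1, the heart and muscle form, was 5.15% to 10.1% of its sum with Cox7a2 over all 18 libraries, and it fell in PTKO at AA 4wk, from 24.4, 20.4 and 24.8 RPKM with DMSO, through 15.2, 16.4 and 21.6 at AA 2wk, to 12.1, 16.2 and 10.2 (log2 change -0.83, limma adjusted p = 0.000906). In fl/fl Cox7a1 read 22.4, 22.4 and 22.6 with DMSO, 21.3, 17.5 and 25.7 at AA 2wk, then 17, 26.4 and 21.3 at AA 4wk, and was not called. Cox4i1, the common form of subunit IV, read 766, 682 and 806 RPKM in fl/fl DMSO, 704, 636 and 941 at AA 2wk, then 655, 704 and 766 at AA 4wk, with ranges that overlapped. In PTKO Cox4i1 read 876, 783 and 902, then 628, 658 and 854, then 566, 518 and 624, and it fell at AA 4wk (log2 change -0.59, limma adjusted p = 0.00306).

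Cox8a and Cox7b, the tested forms of subunits VIII and VIIb, fell in PTKO at AA 4wk. Cox8a read 900, 1010 and 794 RPKM in fl/fl DMSO, 830, 662 and 983 at AA 2wk, then 702, 769 and 846 at AA 4wk, and in PTKO 885, 872 and 872, then 729, 740 and 960, then 599, 583 and 677. Cox7b read 238, 205 and 266 RPKM in fl/fl DMSO, 220, 215 and 329 at AA 2wk, then 207, 231 and 248 at AA 4wk, and in PTKO 244, 247 and 280, then 220, 201 and 239, then 157, 177 and 206. In fl/fl the AA libraries of both genes overlapped the DMSO libraries, and in PTKO the AA 4wk change was -0.50 for Cox8a and -0.52 for Cox7b (limma adjusted p = 0.00775 and 0.00812). Quantile normalization ended the PTKO AA 4wk calls of Cox4i1, Cox6a1, Cox6b1, Cox7b and Cox8a.

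The remaining tissue forms were near the filter. Cox4i2, the form of subunit IV known from lung and hypoxic cells, read 0.457, 1.18 and 0.0869 RPKM in fl/fl DMSO, 1.6, 0.56 and 1.1 at AA 2wk, then 0.652, 1.79 and 1.05 at AA 4wk, and in PTKO 0.376, 0.336 and 0.288, then 0.599, 0.575 and 0.554, then 1.25, 1.99 and 0.752. It was called higher in PTKO at AA 4wk (0.77 on the log2 scale, limma adjusted p = 0.0151), a value that turned to -0.02 under quantile normalization and a call that was lost without PTKO AA 4wk library 2. Cox6a2, the heart and muscle form of subunit VIa, read 4.79, 3.66 and 1.82 RPKM in fl/fl DMSO, 2.21, 1.06 and 3.78 at AA 2wk, then 2.79, 3.17 and 3.15 at AA 4wk, and in PTKO 1.18, 3.58 and 1.17, then 2.39, 1.16 and 2.2, then 1.64, 3.34 and 3.04. Its groups overlapped and no comparison called it. Cox6a1, its common form, read 1190, 1230 and 1070 RPKM in fl/fl DMSO, 1030, 833 and 1270 at AA 2wk, then 949, 1060 and 1110 at AA 4wk, and these ranges overlapped. In PTKO it read 1220, 1250 and 1230, then 922, 935 and 1420, then 767, 777 and 965, and the AA 4wk libraries lay below DMSO. Cox8b was above 0 in 4 libraries and reached 0.312 RPKM, Cox7b2 was above 0 in 2 libraries, and Cox8c was listed at 0 in all 18.

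In complex V the median change of the F1 part lay below that of the peripheral stalk in all 4 comparisons, a grouping drawn with the values known. The F1 part is the alpha and beta subunits of the catalytic head (Atp5a1 and Atp5b) with the gamma, delta and epsilon subunits of the central stalk that turns within it (Atp5c1, Atp5d and Atp5e). Atp5b, the beta subunit that carries the catalytic sites, had the highest mean of all members in fl/fl DMSO. It read 1930, 1640 and 1920 RPKM there, 1350, 1130 and 1690 at AA 2wk, then 1160, 1290 and 1310 at AA 4wk, and in PTKO 2040, 1930 and 1950, then 1110, 1200 and 1640, then 990, 907 and 1060. In fl/fl its AA 2wk library 3 lay within the DMSO range, and all AA 4wk libraries lay below it. Its log2 change was -0.41 (SE 0.16, limma adjusted p = 0.037) and -0.54 (adjusted p = 0.00836) in fl/fl and -0.61 (adjusted p = 0.00471) and -1.005 (adjusted p = 6.13e-05) in PTKO, and the first of these turned to 0.03 under quantile normalization. That fl/fl AA 2wk call was also lost without DMSO library 1 or 3, without AA 2wk library 1 or 2 and in a fit of only the groups compared. Quantile normalization also ended the calls of Atp5b in PTKO at AA 2wk (limma adjusted p = 0.111) and in fl/fl at AA 4wk (limma adjusted p = 0.102). The alpha subunit Atp5a1, its partner in the head, changed by -0.33 (not called), -0.47, -0.56 and -0.90 for fl/fl AA 2wk, fl/fl AA 4wk, PTKO AA 2wk and PTKO AA 4wk, and quantile normalization ended the second and the third of these values' calls (limma adjusted p = 0.0743 and 0.0617). The fl/fl AA 4wk call of Atp5a1 was also lost without DMSO library 1 or AA 4wk library 1. The 5 F1 subunits had medians of -0.33 and -0.46 in fl/fl and -0.46 and -0.74 in PTKO. The 4 peripheral stalk subunits (Atp5f1, Atp5h, Atp5j and Atp5o), which keep the alpha and beta subunits from turning with the rotor, had -0.09 and -0.25 in fl/fl and -0.25 and -0.59 in PTKO. The single values of the F1 and stalk subunits overlapped in all 4 comparisons. The 2 tested genes of the rotor ring (Atp5g1 and Atp5g3) had medians of -0.318 and -0.246 in fl/fl and -0.254 and -0.777 in PTKO. Those of Atp5k, Atp5j2 and Atp5l were 0.025 and -0.235, then -0.253 and -0.66. Without both AA 2wk libraries numbered 3 the AA 2wk medians were -0.50 for the F1 part and -0.22 for the peripheral stalk in fl/fl, and -0.54 and -0.34 in PTKO.

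The rotor ring of complex V is built from identical c subunits that 3 genes encode. Atp5g3 read 959, 928 and 954 RPKM in fl/fl DMSO, 729, 641 and 917 at AA 2wk, then 614, 682 and 703 at AA 4wk, and in PTKO 942, 991 and 947, then 656, 664 and 966, then 534, 475 and 583. It fell at AA 4wk in fl/fl (log2 change -0.51, limma adjusted p = 0.00916) and in PTKO (-0.86, limma adjusted p = 0.000163), and the AA 2wk changes were not called. The fl/fl call was lost under quantile normalization (limma adjusted p = 0.106). Atp5g1 was 0.538% to 1.09% of its sum with Atp5g3 over the 18 libraries. It read 5.81, 8.34 and 5.17 RPKM in fl/fl DMSO, 5.64, 3.62 and 5.74 at AA 2wk, then 5.32, 7.49 and 6.54 at AA 4wk, and in PTKO 7.41, 6.75 and 5.56, then 5.14, 4.65 and 7.98, then 4, 2.71 and 4.41. The PTKO AA 4wk libraries of Atp5g1 were below DMSO (log2 change -0.70, limma adjusted p = 0.00944, and 0.0547 without AA 4wk library 2), and in fl/fl the groups overlapped. Atp5g2 lay between 0.117 and 1.1 RPKM in the 18 libraries and was not tested. Atp5l, a membrane subunit, read 0.324, 1.79 and 0.492 RPKM in fl/fl DMSO, 1.14, 1.25 and 1.57 at AA 2wk, then 1.5, 0.661 and 1.17 at AA 4wk, and these overlapped. It had the highest change of complex V in fl/fl (0.39 at AA 2wk and 0.24 at AA 4wk), was not called, and was the only complex V subunit not called lower in PTKO at AA 4wk.

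The 2 rows outside the complexes both fell in most comparisons. Atp5sl, whose protein is known from the assembly of complex I, read 35.8, 42.6 and 32.2 RPKM in fl/fl DMSO, 24.5, 18.6 and 26 at AA 2wk, then 26.7, 25 and 25.3 at AA 4wk, without overlap between DMSO and AA. Its log2 change was -0.66 and -0.50 in fl/fl (limma adjusted p = 0.000597 and 0.00378) and -0.60 and -0.47 in PTKO (limma adjusted p = 0.00134 and 0.00446). Atp5s fell in 3 of the 4 comparisons, with changes of -0.25 to -0.46 in those; its fl/fl AA 2wk call was lost in 13 settings and its fl/fl AA 4wk call without AA 4wk library 2 (adjusted p = 0.0558).

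Between AA 2wk and AA 4wk few members changed by the test. In fl/fl limma called 0 of 45, against 0.125% of all genes; 1 member had an unadjusted p below 0.05, and voom on the recovered reads also called 0. In PTKO 2 of 45 members fell and 0 rose, against 4.16% of all genes called in either direction. These were Cox7a2 (log2 change -0.60, limma adjusted p = 0.0325) and Cox5a, a structural subunit near the heme-bearing core (-0.48, limma adjusted p = 0.0481), which read 285, 302 and 375 RPKM at AA 2wk and 220, 214 and 254 at AA 4wk. Other settings ended the call of Cox5a in 20 cases and that of Cox7a2 in 7. In the PTKO comparison same-numbered libraries deviated together, and with the replicate number as a block 17 members fell. Of all genes 3.99% were called lower and 7.53% higher with that block. With the block in a fit of only these 2 groups no member and no other gene was called. The counts of members called without single libraries ran from 0 (without PTKO AA 2wk library 3) to 15 (without fl/fl AA 2wk library 3). The share of all genes called in those settings is not given. The median change of the 45 members was -0.13 in fl/fl and -0.37 in PTKO.

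PTKO and fl/fl were then compared at each treatment (the plot of genotype differences). At AA 4wk the members lay lower in PTKO, but none passed the test. With DMSO limma called 0 of 45 members, against 0.0367% of all genes; 0 had an unadjusted p below 0.05 and voom called 0. At AA 2wk it called 0, against 0.00734%, with 0 at an unadjusted p below 0.05 and 0 by voom. At AA 4wk it called 0, against 0.00734%, with 20 members sharing the lowest adjusted p of 0.812. In that comparison 26 of 45 members were lower with an unadjusted p below 0.05, against 4.24% of all genes, and voom called 0. In the genotype by AA interaction limma called 0 members at 2wk and 0 at 4wk, against 0.0147% and 0.00734% of all genes, and voom called 0. At an unadjusted p below 0.05 there were 0 and 12 members. The percentages are for adjusted calls. No share of all genes at an unadjusted p is given for the interaction, so the 12 members are not read as a result.

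The same comparison was read by the overlap of libraries. With DMSO 2 of 45 members lay lower in every PTKO library than in every fl/fl library, against 5.77% of all genes, and 4 lay higher in every one, against 7.88%. At AA 2wk none lay lower, against 4.74%, but there same-numbered libraries of the genotypes deviated together (correlations 0.4307, 0.4363 and 0.6626). Within these 3 pairs, read after seeing the data, 13 of 45 members were lower in PTKO in all 3, against 20.5% of all genes, and the replicate block called 0. The complex II sum was lower in PTKO in 3 of 3 pairs, at 777.6 against 904, 792.7 against 807.1 and 1068 against 1225 RPKM. So was the complex III sum, at 1938 against 2170, 1929 against 1945 and 2566 against 2838 RPKM. The sums of complexes I, IV and V were lower in PTKO in the pairs numbered 1 and 3 and higher in the pair numbered 2. At AA 4wk 30 of 45 lay lower, against 9.73%, and none lay higher. By complex these were 4 of 4 in complex II, 6 of 9 in complex III, 8 of 15 in complex IV and 10 of 14 in complex V, beside 22 of 36 in complex I and 5 of 32 assembly factors. The medians of the genotype difference at AA 4wk were -0.34 for complex II, -0.36 for complex III, -0.32 for complex IV and -0.32 for complex V, against 0.03 for all genes. With sample quality weights 23 members were called lower in this comparison, against 3.35% of all genes, and without both AA 2wk libraries numbered 3, which share the estimate of the spread, 7 were, against 1.15%. At AA 2wk the weights called 8 members lower, against 7.74% of all genes.

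At AA 4wk other lists moved with this genotype difference. The summed level of the 10 proximal tubule markers was 2050 to 2360 RPKM in fl/fl and 970 to 1780 in PTKO, that of the 7 macrophage markers 2110 to 3200 and 3430 to 4770, and that of the 4 fibroblast markers (Pdgfra, Pdgfrb, Col1a1 and Dcn) 133 to 194 and 223 to 244. The lists of other nephron segments were lower in PTKO: 4 thick ascending limb markers summed to 3390 to 4210 RPKM in fl/fl and 1930 to 2960 in PTKO, 3 distal convoluted tubule markers to 315 to 356 and 191 to 277, and 4 intercalated cell markers to 114 to 139 and 89.7 to 108. The 4 T cell markers summed to 44.2 to 52.3 and 65.7 to 75.9 RPKM, and the 2 injury markers to 467 to 751 and 784 to 947. The ranges of these 8 lists did not overlap between the genotypes, whereas those of the principal cell list (166 to 290 and 136 to 202) and the endothelium list (56.7 to 86.2 and 62.6 to 69) did. Taken singly, 4 of the 10 proximal tubule markers lay lower in every PTKO library than in every fl/fl library, against 9.73% of all genes. Of these markers 0 lay higher in every one, against 14.1%. None of the proximal tubule, macrophage and fibroblast markers was at 0 in any library. Depth was 16271383 to 17565863 reads in fl/fl AA 4wk and 10681972 to 17044540 in PTKO AA 4wk, with overlap. The part of these differences in the members' values was not tested.

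**Figure D5:**
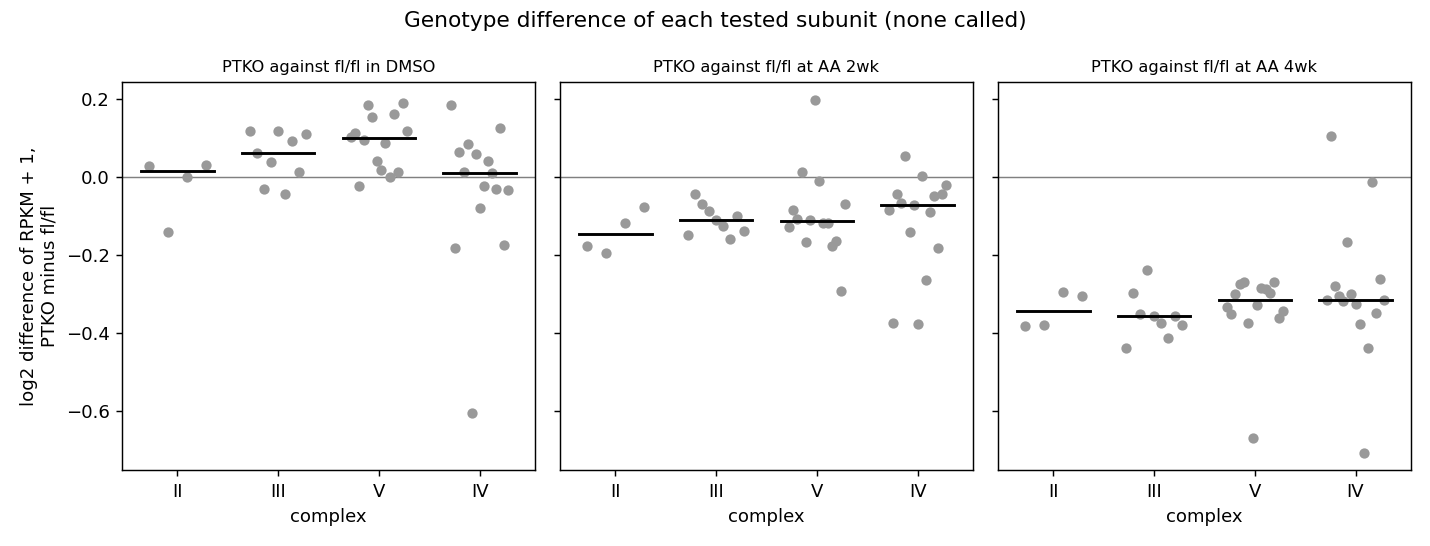
Log2 difference of RPKM + 1, PTKO minus fl/fl (y axis), of each tested subunit by complex (x axis), in panels for DMSO, AA 2wk and AA 4wk; each point is 1 gene and the bar is the median of the complex. At AA 4wk the bars lie between -0.36 and -0.32 in all 4 complexes, and no point is called.

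Assembly factors and regulators of these genes were read beside the members. Of 32 tested assembly factors, proteins that build complexes II to V, 8 fell and 4 rose at AA 2wk in fl/fl, 11 and 3 at AA 4wk in fl/fl, 11 and 2 at AA 2wk in PTKO and 19 and 3 at AA 4wk in PTKO. Of all genes 12.2% to 17.3% fell and 45.9% to 55% rose in these comparisons. The median of the assembly factors was -0.03, -0.13, -0.17 and -0.31 in that order. Under median-of-ratios scaling 21, 27, 21 and 27 fell and at most 1 rose, with medians of -0.40, -0.52, -0.46 and -0.73. Of all genes 27.3% to 33.9% then fell and 26.7% to 32.9% rose. Under quantile normalization 18, 24, 17 and 25 fell and 1 rose in each, with medians of -0.35, -0.51, -0.39 and -0.70. Of all genes 27.7% to 36.5% then fell and 24.1% to 29.2% rose. Without both AA 2wk libraries numbered 3, 11 assembly factors fell and 4 rose at AA 2wk in fl/fl, and 12 fell and 4 rose in PTKO. Of all genes 14.6% fell and 53.7% rose in fl/fl in that setting, and 16% fell and 54.1% rose in PTKO. Atpif1, the inhibitor that binds the ATP synthase, was called lower in 3 of the 4 comparisons, with -0.52 (limma adjusted p = 0.0012) in PTKO at AA 4wk, and in none under quantile normalization.

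Of 12 regulators, 4 rose and 3 to 5 fell in each of the 4 comparisons, beside 45.9% to 55% of all genes that rose and 12.2% to 17.3% that fell. Median-of-ratios scaling left 1 or 2 that rose and 7 or 8 that fell, and quantile normalization 1 or 2 and 7 to 9. All genes shifted as well: 26.7% to 32.9% rose and 27.3% to 33.9% fell under median-of-ratios scaling. Under quantile normalization 24.1% to 29.2% of all genes rose and 27.7% to 36.5% fell. Without both AA 2wk libraries numbered 3, the AA 2wk counts were 4 that rose and 4 that fell in fl/fl, then 4 and 3 in PTKO. Of all genes 53.7% rose and 14.6% fell in fl/fl in that setting, and 54.1% rose and 16% fell in PTKO. Pprc1, a coactivator of the PGC-1 family, rose in all 4 and under both other scalings. It read 3.68, 4.57 and 3.6 RPKM in fl/fl DMSO and 9.53, 11.3 and 9.66 at AA 4wk, without overlap (log2 change 1.18, limma adjusted p = 6.81e-05). The coactivator Ppargc1b fell in all 4 and under both other scalings, with -0.53 and -0.40 in fl/fl and -0.70 and -0.40 in PTKO. Esrra, the orphan receptor ERR-alpha that binds many of these genes, did so too, from 58.6, 61 and 57.8 RPKM in fl/fl DMSO to 41.5, 46.3 and 50.5 at AA 4wk (log2 change -0.36, limma adjusted p = 0.0294), without overlap. The other 3 that rose were Gabpb1, a subunit of the ETS factor GABP, and the transcription factors Nrf1 and Yy1. Nrf1 was no longer called under either other scaling, and its 4 values then ran from 0.089 to 0.157 under median-of-ratios scaling and from -0.174 to -0.038 under quantile normalization. Gabpb1 stayed called higher under median-of-ratios scaling only in fl/fl at AA 2wk (0.32, limma adjusted p = 0.0258). Under quantile normalization Gabpb1 was called only in PTKO at AA 4wk, where it was lower at -0.29. Yy1 was not called under median-of-ratios scaling. Gabpa, another subunit of GABP, was not called in any of the 4. Both other scalings called Gabpa lower in all 4, with -0.58 in PTKO at AA 4wk under each. Ppargc1a was not called in any of the 4, but both other scalings called it lower in PTKO at each time: -0.67 and -0.83 under median-of-ratios scaling (limma adjusted p = 0.00499 and 0.000727), and -0.59 and -0.74 under quantile normalization (limma adjusted p = 0.0181 and 0.00324).

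The promoters of the members were searched for short sequences of the same factors. RefSeq (GRCm38.p6) held a promoter for 38 of the 49 members, and the 250 bases before the start were read. The search used GCGCATGCG and GCGCACGCG for NRF1, CCGGAAG for ETS factors, AAGATGGC for YY1 and TCAAGGTCA for ERR, each on both strands, where the ETS and YY1 letters can share the bases AAG. The NRF1 letters were in 7 of 38 members (18.42%, against 3.17% of 27025 genes), the ETS letters in 9 (23.68%, against 7.83%), the YY1 letters in 2 (5.26%, against 1.83%) and the ERR letters in 1 (2.63%, against 0.42%). By complex, the ETS letters were in 1 of 3 promoters of complex II, 2 of 5 of complex III, 2 of 13 of complex IV and 4 of 14 of complex V. A match is a description of the letters, not a binding site, and its relation to the changes was not tested. Shown are Sdhd, which held both NRF1 and ETS letters, Atp5g3, the member with the ERR letters, and Cox6b2, the member that rose most and that held none of them in this window. Each is written 5′ to 3′ on the gene's strand with matched letters in capitals; they lie at chr9:50603850-50604099, chr2:73911327-73911576 and chr7:4753095-4753344, all on the minus strand.
Sdhd: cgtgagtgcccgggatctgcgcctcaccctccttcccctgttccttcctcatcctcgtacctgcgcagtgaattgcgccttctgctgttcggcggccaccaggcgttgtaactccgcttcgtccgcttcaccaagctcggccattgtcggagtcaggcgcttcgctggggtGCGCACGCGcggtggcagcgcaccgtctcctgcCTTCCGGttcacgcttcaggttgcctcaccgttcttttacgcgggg
Atp5g3: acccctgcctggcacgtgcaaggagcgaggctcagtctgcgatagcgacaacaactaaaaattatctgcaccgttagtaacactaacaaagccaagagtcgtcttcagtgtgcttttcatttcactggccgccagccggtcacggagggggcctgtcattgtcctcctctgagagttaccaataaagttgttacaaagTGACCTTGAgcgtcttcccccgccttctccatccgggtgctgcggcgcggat
Cox6b2: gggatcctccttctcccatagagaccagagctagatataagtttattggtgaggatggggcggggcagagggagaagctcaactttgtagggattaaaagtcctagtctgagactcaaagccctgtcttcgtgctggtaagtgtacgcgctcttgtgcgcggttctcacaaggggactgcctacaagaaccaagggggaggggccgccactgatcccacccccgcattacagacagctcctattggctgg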

How the data were processed

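RNA of 18 kidney cortex libraries was sequenced from a stranded total RNA kit, per the labels' protocols. The authors deposited RPKM values per gene, per the file headers; the submitters' processing notes name bcl2fastq 2.19, kallisto and the build mm10, while the annotation and the assignment of shared reads were not given in the sources used here. Members and lists were chosen with earlier results of these data known. Values were tested as log2(RPKM + 1) with limma 3.58.1 (R 4.3.3; 6 group means, trend, robust moderation) over the 13624 genes that reached 1 RPKM in 3 or more libraries, adjusted by Benjamini-Hochberg over all of them; fold changes of low genes are understated on this scale. Whole reads were recovered from the RPKM steps for 17578 of 17579 genes (99.9943%; tolerance 0.02 reads) and gave the depth, 10681972 to 21155873 reads. In voom, an alternative, they called 9254 of 13607 genes at AA 4wk against DMSO in fl/fl. The test was tried on simulated data. Members described in full were, per complex, those with the largest rise and fall in fl/fl, the isoforms, the Sdh genes, Cyc1 and Cycs. Same-numbered libraries deviated together (every correlation over 0.1) in 2 of 15 pairs of groups: fl/fl and PTKO at AA 2wk, and AA 2wk and AA 4wk in PTKO.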

Additional observations from a re-analysis of the deposited data

How the results depend on the processing

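Alternatives were a pseudocount of 0.1, other filters, median-of-ratios and quantile scaling, voom, quality weights, a replicate block, fits of only the groups compared, and leaving out libraries. The 4 AA comparisons with DMSO gave 13, 18, 24 and 42 members called (fl/fl 2wk, PTKO 2wk, fl/fl 4wk, PTKO 4wk). Median-of-ratios scaling gave 31, 36 and 39 in the first 3; quantile normalization gave 12 in fl/fl at 4wk; quality weights gave 38 in PTKO at 2wk; fitting only the groups compared gave 5 in fl/fl at 2wk; and leaving out both AA 2wk libraries numbered 3 gave 25 and 33 at 2wk. Of all genes the weights called 18.5% lower and 59.2% higher in PTKO at 2wk. The fit of only the groups compared called 9.67% lower and 41.9% higher in fl/fl at 2wk. Without single libraries the counts of members ran from 4 to 21, 12 to 28 and 15 (without fl/fl AA 4wk library 1) to 25. No share of all genes is given beside any count without a single library. Between AA times, quality weights gave 4 in fl/fl, against 14.7% of all genes called lower and 11.6% higher. In PTKO the count of 2 became 1 with the pseudocount of 0.1 and with a minimum of 5 RPKM, 0 with median-of-ratios scaling and with only the groups compared, 4 with quantile normalization, 14 with weights, 17 with the replicate block (0 with the block in a fit of only these groups, added after seeing the data), 5 without both libraries numbered 3, and 0 to 15 without single libraries. Of all genes in this PTKO comparison, the weights called 6.12% lower and 8.11% higher, and the block 3.99% and 7.53%. Quantile normalization called 4.33% lower and 3.61% higher, and leaving out both libraries numbered 3 called 2.65% and 3.38%. The block moved no other count by over 1.5 times. Between genotypes, weights gave 8 at AA 2wk and 23 in the AA 4wk groups, and leaving out both libraries numbered 3 gave 7 at AA 4wk. With median-of-ratios scaling the medians were -0.886, -0.930, -1.104 and -1.434 for complex II, -0.677, -0.714, -0.829 and -1.228 for III, -0.464, -0.471, -0.520 and -0.991 for IV and -0.586, -0.630, -0.714 and -1.128 for V. With quantile normalization they were -0.349 and -0.571 at 4wk for II, -0.049 and -0.415 at 4wk for III, 0.178, 0.047, 0.053 and -0.232 for IV, and 0.010 (fl/fl 2wk), -0.089 and -0.325 (4wk) for V. The complex IV median in fl/fl at 2wk ran from -0.207 to 0.055 without single libraries. Quantile normalization turned Cox4i2 in PTKO at 4wk to -0.019, Cox5a in fl/fl at 4wk to 0.053 and Atp5b in fl/fl at 2wk to 0.027; median-of-ratios scaling turned Cox7a2l at 2wk to -0.121 and -0.084. The cause of these changes was not tested.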
